A study of Homo sapiens with 4 samples.

Results

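Human protein-coding genes listed as lacking introns in their coding transcript were followed in RNA recovered with an antibody against SF3B6. The cells were MDA-MB-231, a triple-negative breast cancer line. A list of 30 such genes was taken by symbol, of which 26 had a row among the 18276 genes of the table. FOXD1, CEBPA, KTI12 and LRRC10B had no row there, so their RNA is not analysed here. The SF3B6 IP group held 2 libraries of antibody-recovered RNA and the Input group 2 libraries of unselected RNA, which the series design text calls biological replicates. Per the labels, the cells of all 4 libraries were irradiated once at 400 mJ/cm2, and the lysate was treated with DNase and micrococcal nuclease before pull-down with 5 ug of antibody. All 4 titles name MDA-MB-231, while the last digit of the cell line entry differs from sample to sample. An IgG antibody is named in the protocols, but Input was the reference used here, so recovery with an unrelated antibody was not compared. No absolute scale is shared by the libraries, so fold changes compare a gene with the remainder of its library.

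Most human messengers are made by removing introns, and SF3B6 is among the smallest proteins of SF3b, a complex within the U2 particle of the spliceosome that engages the branch point of an intron. Intronless genes are transcribed, processed at their ends and exported without that step. Many of them encode transcription factors, immediate early proteins and heat shock chaperones, whose messengers can be made quickly after a signal. The comparison of SF3B6 IP with Input asks here how such messengers were represented in the recovered RNA.

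Gene counts summed to 55492 and 30431 in the SF3B6 IP libraries, against 317190 and 519836 in the Input libraries. A count of 0 in a library allowed up to 3 counts, or 54.1 and 98.6 counts per 1e6 gene counts (CPM) in SF3B6 IP, against 9.46 and 5.77 CPM in Input. These floors and the intervals below cover counting error alone. The line's markers VIM and AXL had 59 and 143 counts over both IP libraries, against 818 and 2408 over both inputs, and CD44, CAV1 and EGFR 5 to 35 in IP, against 132 to 674 in Input. Of 6 luminal epithelial genes, CDH1, EPCAM and GATA3 had 1 count each in IP, against 4, 6 and 19 in Input, ERBB2 had 10 in IP, against 223 in Input, and ESR1 and PGR had no row. The RNA was fragmented and recovered after crosslinking, so fewer transcripts and poorer recovery per transcript cannot be told apart.

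The label was first compared with gene structure. A gene without introns spans as many bases as its exons. A relative exonic length can be recovered from the ratio of count to FPKM (counts scaled to gene length and library total). Its scale was set so that span and length were equal at the median of these same 26 genes. A typical match in the set was thus fixed in advance, and only the differences between genes carry information. The RefSeq span exceeded that length by no more than 5% in 20 of the 26 genes, and 16 of them matched it within 2%, such as JUND (1929 bases of span, 1930 of exons) and IER5 (4201 and 4202). In JUN and PURA the span was shorter than the exonic length, at 0.898 and 0.919 of it. The other 6 had a longer span. RHOG spans 13982 bases with 1760 of exons, KBTBD2 23995 with 4847, KLHL11 16906 with 7366, CEBPG 8978 with 4092, IER2 4501 with 3081 and CEBPB 2108 with 1839. Whether such excess is an intron outside the coding sequence, a coding intron or a different transcript end was not tested, so these 6 belong to the set by its list and not by this measure.

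**Figure D1:**
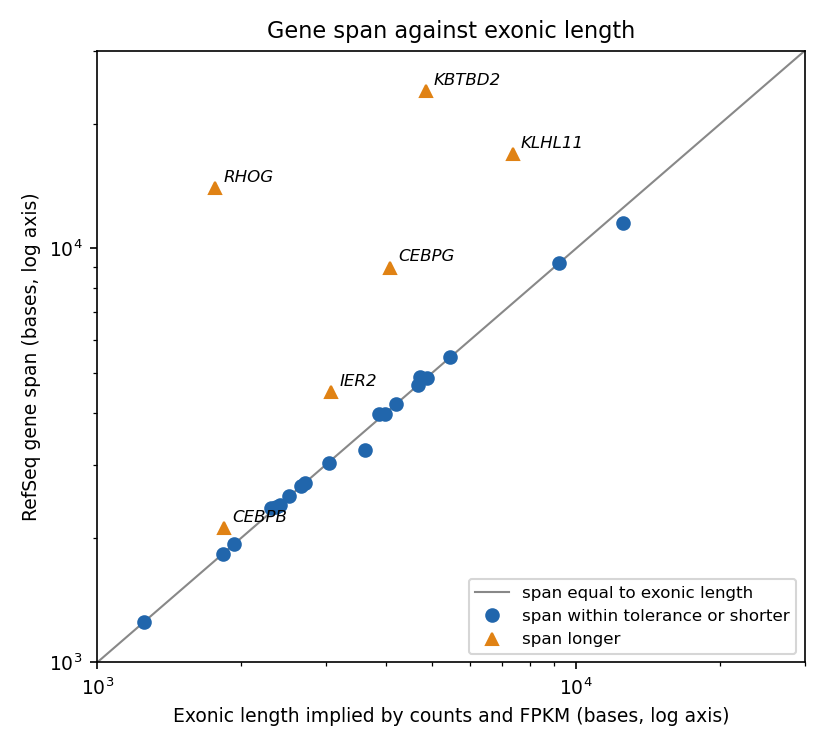
RefSeq gene span against the exonic length implied by counts and FPKM, in bases on log axes, for the 26 genes in the table. The line marks equal lengths, with the length scale set by the median of these genes. Circles (20 genes) lie no more than 5% above the line, JUN and PURA visibly below it, and triangles (6 genes, named) lie above it, RHOG and KBTBD2 farthest.

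A pair of the genes are copies of each other. HSPA1A (chromosome 6, 31815543 to 31817942) and HSPA1B (31827738 to 31830254) encode the stress-inducible HSP70 and lie next to each other. Their upstream sequences are shown because they give the extent of that likeness; from RefSeq (GRCh38.p14), the plus strand at chr6:31815293-31815542 and chr6:31827488-31827737 reads as follows, with the heat shock element GAANNTTC in capitals.
HSPA1A: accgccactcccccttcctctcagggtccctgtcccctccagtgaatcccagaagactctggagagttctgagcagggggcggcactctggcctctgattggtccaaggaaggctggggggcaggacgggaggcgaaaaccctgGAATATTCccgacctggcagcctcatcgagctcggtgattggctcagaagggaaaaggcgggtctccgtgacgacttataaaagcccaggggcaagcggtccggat
HSPA1B: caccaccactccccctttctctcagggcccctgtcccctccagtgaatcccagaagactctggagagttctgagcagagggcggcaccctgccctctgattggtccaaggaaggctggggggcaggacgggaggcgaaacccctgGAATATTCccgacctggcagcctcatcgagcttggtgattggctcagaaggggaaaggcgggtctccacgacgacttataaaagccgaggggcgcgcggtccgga
Of 251 aligned columns 235 are identical (93.6%), and the first 50 transcribed bases are alike in 42 of 51 columns (82.4%). The sources used here do not state how reads were shared between the copies, so their single counts are uncertain.

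The promoters of the set were described by base composition and by 5 short motifs, without a test. RefSeq windows from 250 bases before to 50 after the start were available for 26 of the 30 genes, among them the 4 with no row in the count table, and for 15843 protein-coding genes. Their median GC content was 70.0% in the set (48.7% to 80.7%), against 62.7% over all protein-coding windows, with a median of 32.5 against 22 CpG dinucleotides. CCAAT, read on both strands, stood in 18 of 26 windows (69.2%), against 36.4% of all. GAANNTTC, the same on both strands and the core of the site bound by heat shock factor, stood in 7 (26.9%), against 5.56% of all: JUN, IER5, IER5L, FOXD1, HSPA1A, HSPA1B and HSPA6. TATAAA was found in 4 (15.4%, 9.63% of all), TGACGTCA in 2 (7.69%, 2.59% of all) and TGANTCA in 2 (7.69%, 5.75% of all), both strands searched and none of these 5 motifs contained in another. These are letter matches, and the recovered RNA says nothing of binding at them.

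The messengers of the set were recovered with SF3B6 at about the share of gene counts they held in Input. The sums include the 6 genes with a span longer than their exons. Summed over the 26 genes they made up 118 and 55 counts in SF3B6 IP 1 and 2, against 627 and 1105 in Input 1 and 2. As a share of gene counts that was 0.213% (95% Wilson interval 0.178 to 0.255) and 0.181% (0.139 to 0.235) in IP, against 0.198% (0.183 to 0.214) and 0.213% (0.2004 to 0.225) in Input. The 2 groups overlap, and the ratio of pooled shares, IP over Input, was 0.973 with an exact interval from 0.827 to 1.14. The ratio moves with the denominator: with TMM-scaled library sizes, which give genes of extreme ratio less weight, it was 1.13 (0.963 to 1.32). On the log2 scale, from the mean shares, it was -0.06 with gene counts, 0.25 with protein-coding counts alone, mitochondrial genes left out, and -1.46 with the library totals implied by FPKM. Of the FPKM totals, 7.33% and 6.07% were gene counts in IP, against 15.0% and 20.4% in Input. Protein-coding genes took 70.8% and 59.9% of gene counts in IP, against 78.1% and 82.9% in Input. No p is given for the sum.

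**Figure D2:**
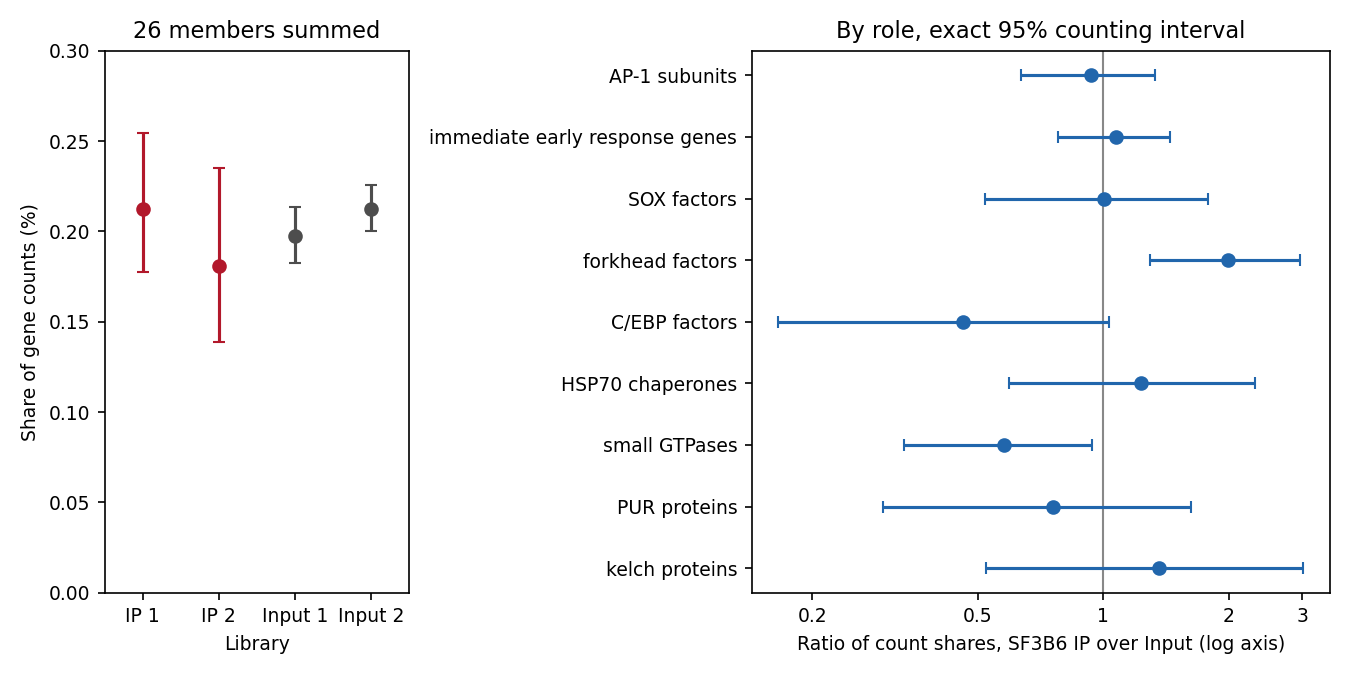
Left, the summed share of the 26 genes in each library, in percent of gene counts, with 95% Wilson intervals; the 4 intervals overlap. Right, the ratio of pooled count shares, SF3B6 IP over Input, by role, with exact counting intervals on a log axis. Forkhead factors lie above 1 (1.99) and small GTPases below (0.577), and the other 7 intervals include 1. A ratio of 1 is no neutral reference, as tested protein-coding genes together stood at 0.823. With TMM-scaled sizes the GTPase interval, 0.386 to 1.09, includes 1, and the forkhead interval, 1.51 to 3.44, does not. The forkhead share was 0.0252% in SF3B6 IP 1 and 0.0526% in SF3B6 IP 2, a spread the intervals leave out. ZXDB, MARS2 and POU3F2, at 0 in IP, are not drawn.

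Gene by gene, none of the messengers of the set passed the test. Of the 26, 14 passed edgeR's filter on low counts, and of these 0 were called higher and 0 lower at an adjusted p under 0.05 (edgeR's quasi-likelihood test with Benjamini-Hochberg adjustment over 3668 genes). Among all tested genes 2.70% were called higher and 1.36% lower, and a count of 0 among 14 is near that background. DESeq2 also called 0, with 1 at an unadjusted p under 0.05. At an unadjusted p under 0.05 stood 2 of the 14 with edgeR, FOXC1 and FOXQ1, and 15.6% of all tested genes. The median log2 fold change was 0.25 over the 14 and -0.06 over all tested genes. The filter bears on these signs. FOXC1 and KBTBD2 passed it through their IP counts alone, and PURB through its Input counts alone. JUN, JUNB, SOX4 and CEBPB reached its cutoff in 3 libraries, both inputs among them. All 5 genes that reached it in both inputs but not in both IP libraries had a fold change below 0. The 7 genes that reached the cutoff in all 4 libraries had a median of 0.37. The median over all tested genes that did so was not computed. In 7 of the 14 the IP libraries both exceeded the inputs, against 20.9% of all tested genes, and in 3 both were below them, against 28.5%. Of the 7 genes at the filter's cutoff in all 4 libraries, 5 were above and 1 below. The share over all tested genes at the cutoff in all 4 was not computed. The remaining 2 above were FOXC1 and KBTBD2, and the remaining 2 below CEBPB and PURB. All of these but CEBPB passed only through the group where they were high, and CEBPB reached the cutoff in 3 libraries. Nothing is read from these counts. With library totals in place of TMM, 5 of the 14 were above and 4 below (14.7% and 38.4% of all tested genes). With the FPKM totals these were 0 and 11 (1.36% and 89.0%). Scaled by the FPKM totals, 6 of the 14 were called lower by edgeR, against 57.2% of all tested genes.

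Depth limits this comparison. The 14 tested genes had a median of 8.5 counts over both IP libraries, against 84.5 over both inputs, and 5 of the 26 genes reached 10 IP counts. Recovery at the Input rate would have given 10 or more IP counts for 6 genes: JUN, JUND, IER2, IER5, FOXQ1 and ARF6. These 6 held 60.6% of the set's Input counts and 64.2% of its IP counts.

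The AP-1 subunits JUN, JUNB and JUND form the dimeric factor that drives growth and stress genes. JUN (chromosome 1, 58780791 to 58784047) had 8 and 1 counts in SF3B6 IP and 64 and 80 in Input. JUND (chromosome 19, 18279694 to 18281622) had 12 and 8 in IP, against 55 and 97 in Input. JUNB had 5 and 0 in IP, against 24 and 35 in Input. After normalisation JUN and JUNB overlapped between the groups, while JUND was above both inputs in both IP libraries, at 264 and 349 CPM against 194 and 198 CPM (levels of single genes are scaled by TMM over the tested genes). Their log2 fold changes were -0.50 ± 0.51 (SE) for JUN, 0.58 ± 0.36 for JUND and -0.06 ± 0.72 for JUNB, none of which passed (edgeR adjusted p = 0.702, 0.455 and 0.983). JUN depended on single libraries, at -2.30 without SF3B6 IP 1 and -0.18 without SF3B6 IP 2. JUND stayed above 0 without each library, from 0.33 (without SF3B6 IP 2) to 0.65 (without Input 2). Summed, the AP-1 subunits had 34 counts in IP, against 355 in Input, a ratio of shares of 0.933 (0.636 to 1.33). Per length, JUND was the most abundant of all 26 genes in both inputs, at 8.21 and 8.27 FPKM in IP and 13.4 and 19.8 FPKM in Input.

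The immediate early response genes IER2, IER5 and IER5L encode short-lived nuclear proteins made soon after growth factors or stress. IER5 (chromosome 1, 181088700 to 181092900) had the most counts of the set, 20 and 9 in IP against 87 and 175 in Input. IER2 (chromosome 19, 13150411 to 13154911) had 11 and 5 in IP against 51 and 89 in Input. Both were slightly above both inputs in each IP library after TMM, and overlapped them with library totals. IER5 was at 440 and 392 CPM in IP against 306 and 357 CPM in Input (log2 fold change 0.33 ± 0.29 SE, edgeR adjusted p = 0.635). IER2 was at 242 and 218 CPM in IP against 179 and 181 CPM in Input (0.37 ± 0.39, adjusted p = 0.730). Neither passed, and the counting intervals of their ratios, 0.824 to 1.84 for IER5 and 0.720 to 2.18 for IER2, do not separate an equal share from a modest gain. Without SF3B6 IP 1 the log2 fold changes were 0.0015 for IER5 and 0.052 for IER2. IER5L, not tested, had 2 and 1 counts in IP, against 10 and 25 in Input, a ratio of 0.971 (0.191 to 3.08).

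The forkhead factors and SOX12 were among the highest fold changes of the set. FOXC1 (chromosome 6, 1609915 to 1613897), a regulator of mesenchymal and basal-like breast cancer states, had 4 and 4 counts in IP, against 7 and 14 in Input. FOXQ1 (chromosome 6, 1312098 to 1314758), linked to epithelial-mesenchymal transition, had 10 and 12 in IP, against 50 and 76 in Input. SOX12, a developmental factor of the SOXC group, had 6 and 3 in IP, against 19 and 32 in Input. In all 3 genes both IP libraries were above both inputs, with TMM and with library totals alike. FOXC1 passed the filter on low counts through its IP counts alone, so nothing is read from its order or its p. With the FPKM totals the groups of FOXC1 and FOXQ1 overlapped, and SOX12 was below both inputs. FOXC1 was at 88.1 and 174 CPM in IP against 24.6 and 28.5 CPM in Input (log2 fold change 2.10 ± 0.67 SE, edgeR adjusted p = 0.0731). FOXQ1 was at 220 and 523 CPM in IP against 176 and 155 CPM in Input (0.98 ± 0.39, adjusted p = 0.173), and leaving out SF3B6 IP 2 put it at 0.34 on the log2 scale. SOX12 was at 132 and 131 CPM in IP against 66.8 and 65.2 CPM in Input (0.99 ± 0.58, adjusted p = 0.403). None passed the test. SOX4, the other SOXC factor of the set, went the other way, with 4 and 0 counts in IP, against 21 and 54 in Input (-0.72 ± 0.76, adjusted p = 0.727), and its groups overlapped. It was at -0.23 without SF3B6 IP 2, and at -7.70 without SF3B6 IP 1, which leaves it 0 IP counts. Pooled, FOXC1 and FOXQ1 had 30 counts in IP, against 147 in Input, a ratio of shares of 1.99 (1.30 to 2.96), whose interval leaves out the spread between libraries.

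**Figure D3:**
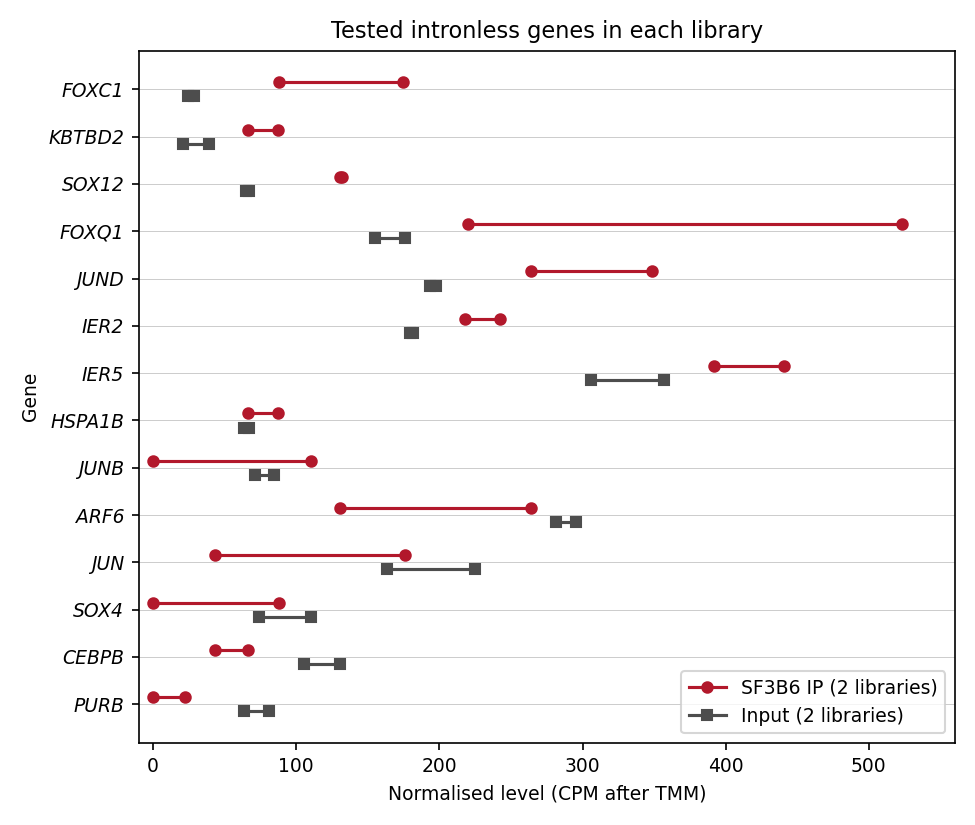
Normalised level (CPM after TMM) of the 14 tested genes in each library, ordered by log2 fold change; circles are the 2 SF3B6 IP libraries, squares the 2 Input libraries, joined by a line. FOXC1, KBTBD2, SOX12, FOXQ1, JUND, IER2 and IER5 have both IP libraries above both inputs, and ARF6, CEBPB and PURB have both below. Over all tested genes these shares are 20.9% and 28.5%. FOXC1 and KBTBD2 passed the filter through IP alone, and PURB through Input alone. With library totals IER2 and IER5 overlap and JUN is below.

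The C/EBP factors, leucine zipper proteins of differentiation and inflammation, were sparse in IP. CEBPB (chromosome 20, 50190583 to 50192690) had 3 and 1 counts in IP, against 30 and 64 in Input, below both inputs in each IP library. Its log2 fold change was -1.04 ± 0.68 (SE) and did not pass (edgeR adjusted p = 0.477); without SF3B6 IP 1 it was -1.68. CEBPD had 2 and 0 counts in IP, against 11 and 15 in Input, and CEBPG 0 and 0 in IP, against 2 and 5 in Input, too few to test. Together the C/EBP genes had 6 counts in IP, against 127 in Input, a ratio of shares of 0.460 (0.166 to 1.03).

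Among chaperones, HSPA1B had 3 and 2 counts in IP, against 19 and 31 in Input, and its copy HSPA1A 5 and 1 in IP, against 15 and 21 in Input. The groups overlapped for both. HSPA1B was at 0.18 ± 0.70 (SE) as a log2 fold change (edgeR adjusted p = 0.953); HSPA1A was not tested. HSPA6, a strictly inducible HSP70, had 0 counts in IP, against 1 in Input. If each shared read was counted once, the sum over the HSP70 genes does not depend on how reads were split between the copies. The sources used here do not state whether it was. The sum was 11 counts in IP, against 87 in Input, a ratio of shares of 1.23 (0.593 to 2.31).

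Summed, the small GTPases lay on the low side in IP, with most of their counts from ARF6. ARF6 (chromosome 14, 49893082 to 49897054), which steers endosomal traffic and actin at the plasma membrane, had 12 and 3 counts in IP, against 80 and 145 in Input. At 264 and 131 CPM in IP against 281 and 296 CPM in Input it was below both inputs in each IP library, but its log2 fold change of -0.40 ± 0.37 (SE) did not pass (edgeR adjusted p = 0.652). It was -1.36 without SF3B6 IP 1 and -0.23 without SF3B6 IP 2. RHOB had 1 and 1 counts in IP, against 10 and 15 in Input, a ratio of 0.907 (0.104 to 3.64), and its groups overlapped. RHOG, which acts upstream of Rac, had 0 and 0 in IP, against 9 and 28 in Input, and the exact interval of its ratio, 0 to 1.19, includes no change. RHOG is also the gene with the highest ratio of span to exonic length (7.94, against 4.95 for KBTBD2). Summed, the GTPases had 17 counts in IP, against 287 in Input, a ratio of shares of 0.577 (0.332 to 0.940), and with TMM-scaled sizes 0.671 (0.386 to 1.09).

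PURA and PURB encode closely related proteins that bind single-stranded, purine-rich nucleic acid, and their values diverged. PURB (chromosome 7, 44876299 to 44885530) had 1 and 0 counts in IP, against 23 and 31 in Input, below both inputs, with a ratio of pooled counts of 0.210 (0.00522 to 1.22). Its fitted log2 fold change of -2.21 ± 1.13 (SE) did not pass (edgeR adjusted p = 0.336), and it entered the test through its Input counts alone. PURA had 5 and 1 counts in IP, against 14 and 22 in Input, a ratio of 1.89 (0.651 to 4.53), and was not tested. The intervals of both ratios include 1 and overlap each other.

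The other genes were low. KBTBD2, a kelch adaptor of a ubiquitin ligase, had 3 and 2 counts in IP, against 6 and 19 in Input (log2 fold change 1.19 ± 0.77 SE, edgeR adjusted p = 0.477). It passed the filter through its IP counts alone, and its span is among those longer than the exons. KLHL11, another kelch protein, had 1 and 1 in IP, against 10 and 15 in Input. ZXDB, MARS2 (the mitochondrial methionyl-tRNA synthetase) and POU3F2 (a neural factor) were at 0 counts in IP and at 21, 4 and 1 over the inputs. Their expected IP counts at the Input rate were 1.85, 0.353 and 0.0882, under the floor of 3, so a loss was not detectable at this depth. In all, 6 of the 26 genes had 0 IP counts, each of them untested, and a further 5 had 1 to 3.

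**Figure D4:**
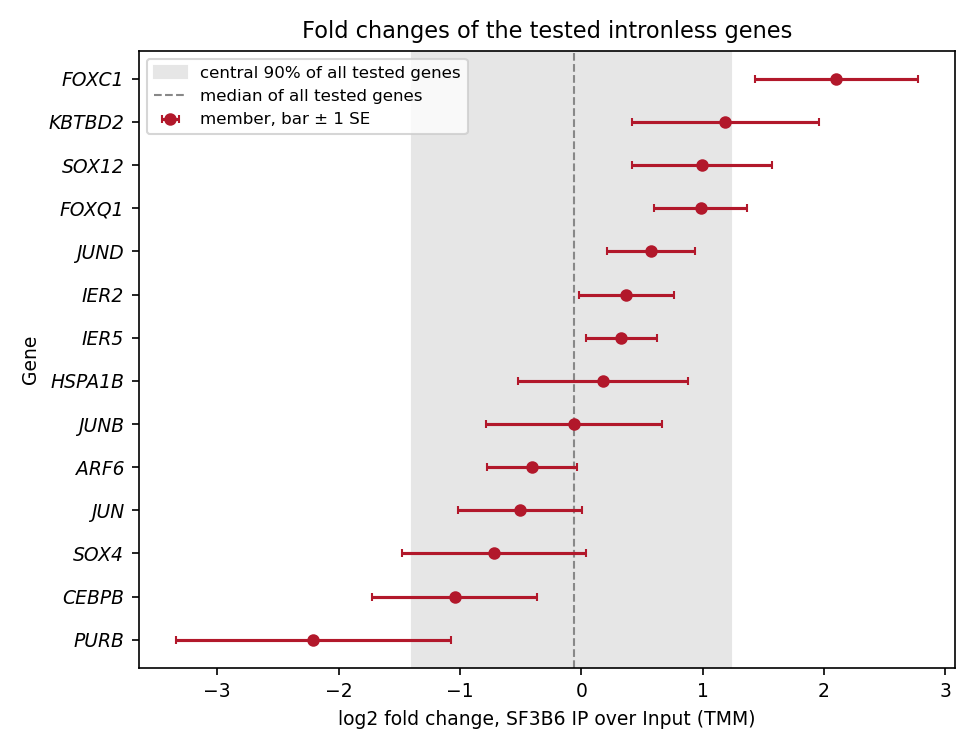
Log2 fold changes of the 14 tested genes, SF3B6 IP over Input with TMM scaling, bars ± 1 SE; the grey band holds the central 90% of all 3668 tested genes (from -1.39 to 1.24) and the dashed line their median (-0.06). FOXC1 lies above the band and PURB below it; each passed the filter only through the group where it was high, and neither passed the test.

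Genes of like function that carry introns were set beside the set. Of 25 immediate early genes with introns, 24 had a row and 12 were tested, of which 0 rose and 0 fell, with a median log2 fold change of -0.11. The most abundant, the matrix-signalling genes CCN1 and CCN2, were at -0.28 ± 0.21 and -0.12 ± 0.26 (SE; edgeR adjusted p = 0.561 and 0.896). Of 37 paralogs with introns, 17 of 36 were tested with 0 called either way and a median of -0.28. HSPA5, the chaperone of the endoplasmic reticulum, was at -0.78 ± 0.30 (adjusted p = 0.162) and FOXK1 at -0.18 ± 0.28 (0.851). Heat shock genes with introns, 8 of 12 tested, had 0 calls and a median of 0.34, with HSP90AB1 at 0.06 ± 0.38 (adjusted p = 0.972) and HSF1 at 0.66 ± 0.33 (0.323). In each of these lists, as among the intronless genes, no gene passed; 0, 1 and 1 of their genes were at an unadjusted p under 0.05. Their ratios of pooled shares, IP over Input, were 0.819 (0.715 to 0.934), 0.684 (0.591 to 0.789) and 1.23 (0.997 to 1.51), in the same order. No difference between lists was tested.

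No further gene listed as intronless was called. Of 52 others listed, 34 had a row and 7 were tested, of which 0 rose and 0 fell (2 at unadjusted p under 0.05), with a median log2 fold change of -0.24. Summed, these 34 had 118 counts in IP, against 1515 in Input, a ratio of pooled shares of 0.759 (0.624 to 0.916). With TMM-scaled sizes it was 0.883 (0.726 to 1.07). The share ratio was lower than that of the set, with overlapping intervals, and the difference was not tested. CLDN4, a tight junction protein, had 9 and 7 counts in IP, against 121 and 203 in Input (-0.84 ± 0.33 SE, edgeR adjusted p = 0.182), and FZD7, a Wnt receptor, 10 and 5 in IP, against 77 and 148 in Input (-0.40 ± 0.37, adjusted p = 0.651). Over the whole table, 378 protein-coding genes outside the set had a span no longer than their exonic length within a tolerance of 5%. Each had at least 0.5 FPKM in some library. Of these 141 were tested, with 1 higher, 0 lower and a median of 0.01. The gene called was RPL36, with 10 and 8 counts in IP, against 27 and 40 in Input (1.60 ± 0.45, adjusted p = 0.0334); it is known to have introns, and its exonic length of 2272 bases exceeded its span of 1581, so this class is not purely intronless. Of 3232 tested genes with a longer span, 43 were higher and 50 lower, with a median of -0.08. As ratios of pooled shares, IP over Input, the shorter-span class stood at 0.855 (0.816 to 0.895) and the longer-span class at 0.815 (0.808 to 0.823), both below the 0.973 (0.827 to 1.14) of the intronless set, whose interval includes the first; these differences were not tested. With TMM-scaled sizes they were 0.995 (0.9498 to 1.04), 0.948 (0.940 to 0.957) and 1.13 (0.963 to 1.32).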

How the data were processed

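Per file, the authors deposited raw read counts of every gene and, for the same gene list, FPKM values (counts over gene length and a library total). The submitters' processing notes name HISAT2, HOMER and the hg38 build without a role; which counter and strand setting were used, and how multiply mapped reads were treated, the sources used here do not state. Overlapping and antisense genes can therefore share reads.

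Counts were tested with edgeR 4.0.16 in R 4.3.3 (quasi-likelihood), with the default filter on low expression and group as sole factor. TMM factors were 0.968, 0.860, 1.06 and 1.13 for SF3B6 IP 1 and 2 and Input 1 and 2. Benjamini-Hochberg adjustment at 0.05 ran over 3668 genes. An earlier check on simulated data had changes only in well counted genes and the same spread in both groups. It does not cover genes as sparse as most members. The SE is the log2 fold change over the square root of F. Single-gene count ratios use TMM-scaled library sizes, and ratios of sums use all gene counts unless stated; intervals are exact at 95%. Replicates differed by more than counting noise (chi-square per degree of freedom 4.33 in IP, 1.72 in Input), and p-values measure the spread between these libraries. With 2 against 2 libraries a permutation test cannot go below p = 0.333. Relative library totals implied by FPKM came from the ratio of count to FPKM over 93 genes with at least 20 counts and 5 FPKM. Their absolute scale, and that of the exonic lengths, was set so that span equalled exonic length at the median of the members. Gene positions are those of RefSeq GRCh38.p14, where 15134 genes matched by symbol. DESeq2 1.42.0, other scalings, other filters, a replicate block and fits without each library were alternatives.

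Named genes were all members in the table, and of each other list those past the threshold or the 2 most abundant in Input. Members and lists were chosen with earlier results of these data known.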

Additional observations from a re-analysis of the deposited data

How the results depend on the processing

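No member was called higher under any alternative. With the library totals implied by FPKM, which put the median of all tested genes at -1.65, 6 were called lower, against 57.2% of all tested genes: JUN, IER5, SOX4, CEBPB, PURB and ARF6. No other alternative called a member. That scaling turned the log2 fold changes of JUND (-1.01), IER2 (-1.23), IER5 (-1.28), SOX12 (-0.60), FOXQ1 (-0.57), HSPA1B (-1.40) and KBTBD2 (-0.40) below 0. With no filter IER2 (-0.10), IER5 (-0.14) and HSPA1B (-0.29) were below 0 as well, where the median of all genes was -1.23. HSPA1B was also negative with library totals (-0.069), and over the fits without 1 library it ran from -0.062 (without SF3B6 IP 2) to 0.21. JUNB ran from -7.36 without SF3B6 IP 1, which leaves it 0 IP counts, to 0.43 without SF3B6 IP 2. The smallest adjusted p of a member under the alternatives other than the FPKM totals was 0.0549 (FOXC1, replicate block). Over all genes, calls higher and lower, 99 and 50 in the report, were 17 and 2098 when scaled by the FPKM totals, 56 and 90 by library totals, 50 and 163 with no filter, 35 and 3 with DESeq2, which gave no adjusted p for 1849 genes, 8 members among them. Lower calls were 25 with at least 50 counts in 2 libraries and 22 with a replicate block. Leaving out 1 library changed how many genes were tested and gave 26 to 94 higher and 5 to 70 lower calls; the lone library was assumed to vary like the other group. The replicate numbers showed no shared deviation (correlation -0.00218 over 3668 genes). Few IP counts per gene weaken that check, so whether the numbers mark pairs was not settled. The replicate block called 68 genes higher. The summed share of the members, -0.06 on the log2 scale, moved to 0.16 with TMM-scaled sizes, 0.25 with protein-coding counts and -1.46 with the FPKM totals, and ran from -0.18 to 0.05 without each library. Restricting to the 20 genes whose span is no longer than the exonic length within 5%, chosen after seeing the data, gave -0.01 and 0 calls. The cause was not tested. Fewer than 10 IP counts for most members limit what could be called.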
